A study of Mus musculus with 21 samples.

Results

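The miRNAs miR-451, miR-144 and miR-486 are the small RNAs best known from red blood cells and their precursors, and they were followed here through folic acid injury of the mouse kidney. They were picked by name, as the rows miR-451, miR-144-3p, miR-144-5p, miR-486-5p, miR-486-3p and miR-3107-5p, which are 6 of the 1125 mouse miRNA rows measured. The row miR-3107-5p is a near copy of miR-486-5p: it held between 99.5% and 100% of the reads of miR-486-5p in each library, so the pair is counted once and 5 distinct miRNAs are described. All 6 rows passed the filter on low counts, which left 431 rows for testing.

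Kidneys of male BALB/c mice aged 12 weeks were taken after an injection of folic acid at 250 mg/kg in sodium bicarbonate, and small RNAs of the homogenised tissue were sequenced. Collection was on day 0, on days 1, 2 and 3, and on days 7, 14 and 28. Each of the 7 days had 3 libraries, 21 in all. Every library came from the same strain and sex, no genetic change was stated, and no group given bicarbonate alone was among the samples used here. Folic acid at such doses injures the tubules, and the days after day 0 cover injury and later repair or scarring. Day 0 served as the baseline for each later day; the labels do not make clear whether day 0 mice were injected, and each difference from day 0 depends on that. Nothing in the labels ties each library to its own mouse; the p-values given are then about library-to-library spread, which may be technical. Libraries held 2875675 to 7110546 reads assigned to miRNAs, with a median of 4494595.

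Red cells lose their nucleus but keep a pool of miRNAs, and miR-451, miR-144 and miR-486 rise as erythroid cells mature. miR-144 and miR-451 are cut from 1 transcript that the erythroid factor GATA1 switches on, while miR-486 lies in an intron of Ank1, the gene of an ankyrin of the red cell membrane skeleton, and is also made in muscle. miR-451 is matured by the slicing activity of Ago2 and not by Dicer, and it is required with miR-144 to protect red cells from oxidative stress. A kidney contains these miRNAs with the blood in its vessels, and in whole tissue fewer cells of a type and less RNA per cell cannot be told apart. The table holds miRNAs only, so no globin or other messenger RNA of red cells was available to check the erythroid label.

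The mature sequences show that the 3 miRNAs of the miR-144 and miR-451 locus carry different seeds, the bases (2 to 8, in capitals) that pair with targets. Of the 6 rows, 3 matched an entry of RefSeq (build GRCm38.p6), all on the plus strand of chromosome 11.
miR-451, chr11:78073186-78073207: aAACCGUUaccauuacugaguu
miR-144-3p, chr11:78073047-78073066: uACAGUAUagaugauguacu
miR-144-5p, chr11:78073010-78073032: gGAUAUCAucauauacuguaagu
None of the other mature entries, out of 1679, shares bases 2 to 8 with any of them. Bases 2 to 7 of miR-144-3p recur in 1 other miRNA, miR-101a-3p of chromosome 4, whose sequence with those bases in capitals is given for comparison.
miR-101a-3p: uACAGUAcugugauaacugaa

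The hairpins show how differently the arms are placed, with the mature miRNAs in capitals.
Mir144, chr11:78073005-78073070: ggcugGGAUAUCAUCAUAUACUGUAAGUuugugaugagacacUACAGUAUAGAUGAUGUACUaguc
Mir451a, chr11:78073170-78073241: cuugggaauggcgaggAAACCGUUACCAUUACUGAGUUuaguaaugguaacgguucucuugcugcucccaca
The hairpin of miR-144 gives an arm from each side of its loop. The 22 bases of miR-451 run from base 17 to base 38 of a hairpin of 72 bases, so they extend through the loop, and the hairpin yields a single mature strand. The hairpins lie 99 bases apart. The genes Mir486 and Mir3107 overlap each other inside Ank1 on chromosome 8, and the rows miR-486-5p, miR-486-3p and miR-3107-5p are given by name.

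Levels are deposited CPM, reads of a row scaled so that each library sums to 1000000, after scaling by the trimmed mean of M values (TMM), which corrects for differences in library composition. miR-486-5p was the most abundant of the 5 and ranked 39 among all 1125 rows by mean level, with 2080 to 54231 reads per library. miR-451 ranked 81, miR-144-3p 195, miR-144-5p 213 and miR-486-3p 348. miR-486-3p, the minor strand of its hairpin, had 4 to 80 reads per library, so its values carry far more counting error than the others.

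miR-451, the Ago2-sliced miRNA that is made almost entirely in the erythroid line, stood at 514, 452 and 212 CPM on day 0, at 606, 1793 and 1085 on day 1 and at 1712, 1442 and 835 on day 2. It stood at 298, 174 and 227 CPM on day 3, at 391, 363 and 171 on day 7, at 393, 117 and 162 on day 14 and at 215, 144 and 292 on day 28. The 6 libraries of days 1 and 2 were above all 15 others, and days 1 and 2 overlapped each other. Against day 0 alone, 18.1% of all tested rows lay wholly above on day 1 and 31.1% on day 2. The share above all 15 others was not counted. From day 3 on the libraries of every day overlapped those of day 0.

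miR-144-3p, the guide strand of miR-144, stood at 53.1, 54.7 and 28.1 CPM on day 0, at 50.5, 90.9 and 75.4 on day 1 and at 146, 121 and 68.4 on day 2. It stood at 24.3, 12.3 and 15.2 CPM on day 3, at 35.3, 28.4 and 10.4 on day 7, at 38.2, 7.42 and 9.66 on day 14 and at 18.3, 11.5 and 28.4 on day 28. All day 2 libraries were above day 0 and all day 3 libraries were below day 0, whereas day 1 overlapped day 0. Among all tested rows, 31.1% lay wholly above day 0 on day 2 and 24.8% wholly below it on day 3. On day 14 replicate 1 stood far above the other 2 libraries.

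miR-144-5p, the other strand of the miR-144 hairpin, stood at 40.9, 48.6 and 21.7 CPM on day 0, at 31.0, 60.6 and 67.6 on day 1 and at 73.0, 61.9 and 42.7 on day 2. It stood at 12.3, 9.09 and 12.8 CPM on day 3, at 20.8, 30.4 and 6.96 on day 7, at 33.9, 7.08 and 4.71 on day 14 and at 15.9, 9.69 and 29.7 on day 28. Days 1 and 2 both overlapped day 0. Day 3 lay below day 0 with no overlap for both strands of miR-144, as it did for 24.8% of all tested rows.

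miR-486-5p, the guide strand of miR-486, stood at 2650.4, 2825 and 1031 CPM on day 0, at 3820.4, 5709 and 4893 on day 1 and at 7668, 7245 and 3783 on day 2. It stood at 1436, 944 and 939 CPM on day 3, at 1935, 1566 and 577 on day 7, at 2289.8, 702 and 518 on day 14 and at 1311, 943 and 1733 on day 28. Days 1 and 2 were above day 0 in every library, as for miR-451. On day 1 that held for 18.1% of all tested rows and on day 2 for 31.1%. Replicate 1 again stood apart from the other 2 libraries of day 14.

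miR-486-3p stood at 5.99, 5.36 and 2.32 CPM on day 0, at 5.46, 6.48 and 5.97 on day 1 and at 10.3, 10.7 and 7.39 on day 2. It stood at 2.46, 2.93 and 1.20 CPM on day 3, at 1.95, 4.02 and 1.99 on day 7, at 2.36, 2.03 and 2.12 on day 14 and at 5.06, 1.02 and 2.85 on day 28. Day 2 was wholly above day 0, as for 31.1% of all tested rows, and the other days overlapped it. By mean level the order of the highest 3 days was day 2, day 1, day 0 for all 5 miRNAs, while the order of days 3 to 28 differed between them and rested on overlapping libraries.

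**Figure D1:**
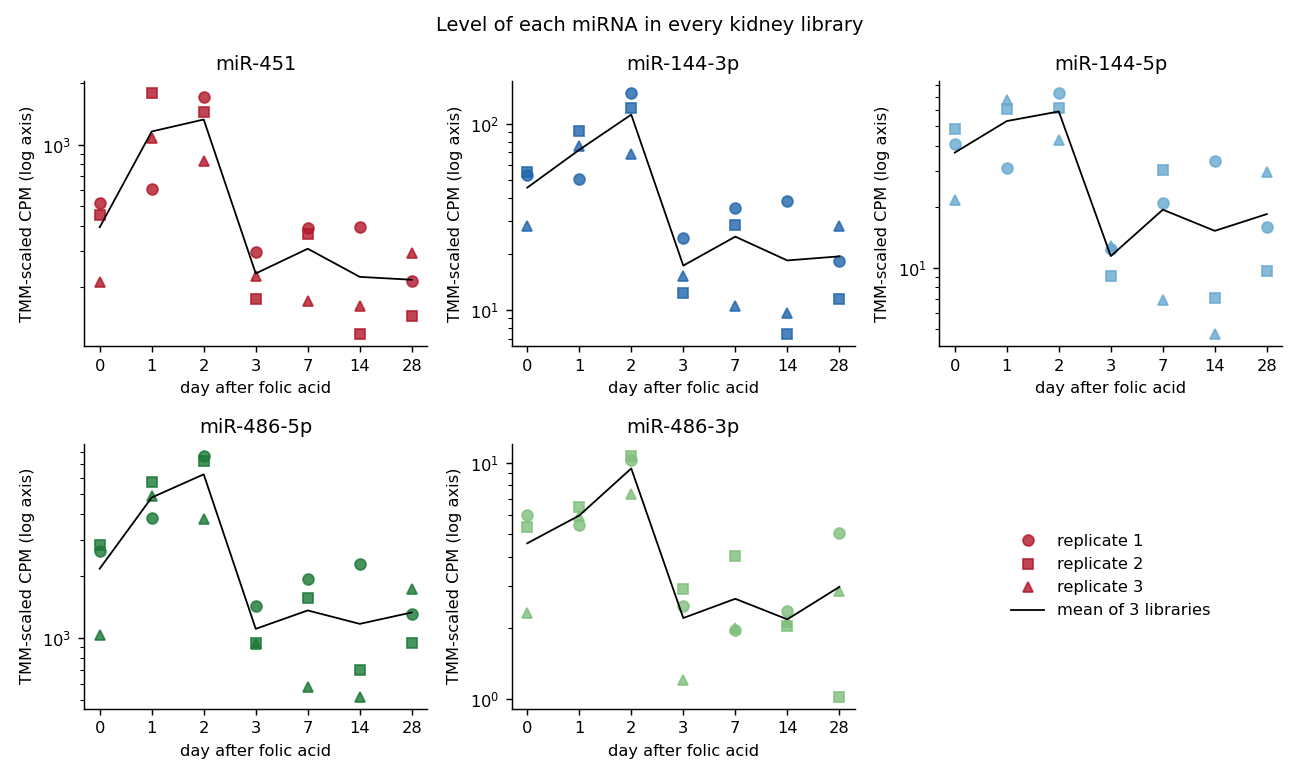
Level of each miRNA in every library (TMM-scaled CPM, log axis) against the day after folic acid, with days evenly spaced; symbols are replicates 1 to 3 and the line joins the means of 3 libraries. All 5 panels lie far lower on day 3, where miR-451 averaged 233 CPM, than at their peak on day 2, where it averaged 1329 CPM.

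The sharpest step was that between days 2 and 3, when all 5 miRNAs fell together. miR-144-3p averaged 17.3 ± 6.25 CPM on day 3 and 112 ± 39.5 CPM on day 2 (SD, n = 3 each), a log2 difference of -2.61. miR-451 averaged 233 ± 62.7 CPM on day 3 and 1329 ± 449 CPM on day 2, a difference of -2.48. miR-486-5p averaged 1106 ± 286 CPM on day 3 and 6232 ± 2132 CPM on day 2, a difference of -2.45. The less abundant strands moved with them. miR-144-5p averaged 11.4 ± 2.04 CPM on day 3 and 59.2 ± 15.3 CPM on day 2, and miR-486-3p averaged 2.20 ± 0.893 CPM on day 3 and 9.45 ± 1.79 CPM on day 2. Every day 3 library was below every day 2 library for each of the 5.

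In a single limma-trend fit on log2(TMM-scaled CPM + 1), with Benjamini-Hochberg adjustment over all 431 rows, the adjusted p was 0.00399 for miR-144-3p (SE 0.49), miR-451 (SE 0.45), miR-486-5p (SE 0.48) and miR-486-3p (difference -1.73, SE 0.34). It was 0.0204 for miR-144-5p (difference -2.26, SE 0.55). These log2 differences understate the change of low rows, miR-486-3p most of all. In the same comparison 7 rows were called lower, which is 1.62% of those tested, and the 6 rows described here were among them. The remaining 1 was miR-5097, named after its values were seen, which averaged 21.7 ± 4.31 CPM on day 3 and 39.1 ± 3.32 CPM on day 2 (log2 difference -0.83). On the other side 16 rows, 3.71%, were called higher, and the median log2 difference over all tested rows was 0.04. Lower on day 3 with no overlap of libraries were 7.19% of the rows tested. Higher calls made up 69.6% of all calls, against 46.2% with upper-quartile scaling, 56.2% with the scaling of DESeq2 and 58.8% with library totals; the 6 rows were lower and called under each of these scalings.

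The calls of miR-451, miR-144-3p, miR-486-5p and miR-486-3p between days 3 and 2 were kept under every alternative that tested them, including each fit without 1 library. The call of miR-144-5p was lost without day 2 replicate 1 (adjusted p 0.0821), day 2 replicate 2 (0.0851), day 3 replicate 1 (0.0609) or day 3 replicate 2 (0.106), with differences between -2.50 and -2.13 over all fits without 1 library. The day 3 libraries held 4916417, 3212481 and 4509580 reads and the day 2 libraries 6590895, 7110546 and 3791713. With log2 total reads as a covariate, added after the data were seen, the difference was -1.98 for miR-451, -1.87 for miR-486-5p and -1.56 for miR-486-3p. These 3 and miR-144-3p stayed called, and miR-144-5p (-1.67, adjusted p 0.0577) did not.

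**Figure D2:**
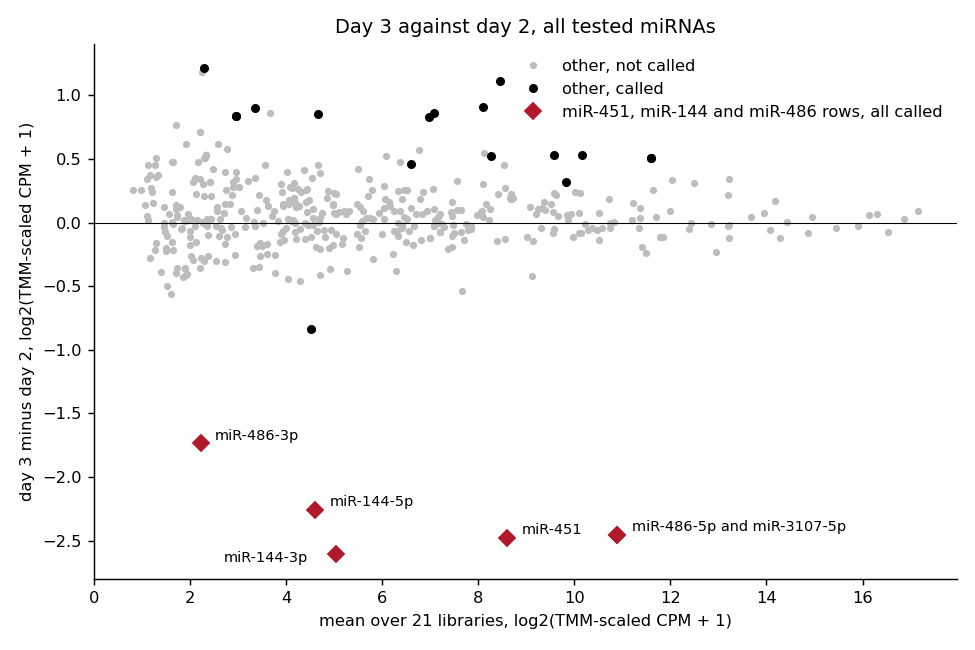
Log2 difference of day 3 minus day 2 (vertical axis) against mean level over 21 libraries (horizontal axis, log2(TMM-scaled CPM + 1)) for all 431 tested rows; red diamonds are the 6 rows described here, black points other called rows and grey points the rest. The 6 rows lie between -2.61 and -1.73, far below miR-5097 at -0.83, the lowest of the others.

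Against day 0, miR-451 was higher on days 1 and 2, and 3 others were called higher on day 2 alone. miR-451 averaged 1161 ± 597 CPM on day 1 and 393 ± 159 CPM on day 0 (log2 difference 1.52, SE 0.45, limma adjusted p 0.0164), and it was the 1 of 5 that was called, where 14.2% of all tested rows were called higher. miR-486-5p averaged 4808 ± 947 CPM on day 1 and 2169 ± 989 CPM on day 0 and missed the threshold (1.26, adjusted p 0.0645), which it passed with library totals (0.0352), in a fit of the days compared (0.0160) and with log2 total reads as a covariate (1.64, 0.00302). The differences of miR-144-3p (0.68), miR-144-5p (0.51) and miR-486-3p (0.40) on day 1 were not called. The call of miR-451 on day 1 was lost without day 0 replicate 3 (1.08, adjusted p 0.104) or without day 1 replicate 2 (1.14, adjusted p 0.0957).

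On day 2, 4 of the 5 miRNAs were called higher than on day 0, where 24.4% of all tested rows were. miR-451 rose by 1.79 on the log2 scale (adjusted p 0.00282), miR-486-5p by 1.59 (0.0115), miR-144-3p by 1.27 (0.0413) and miR-486-3p by 0.97 (0.0258). For those 4, all day 2 libraries lay above all day 0 libraries, as they did for 31.1% of all rows. miR-144-5p (0.70, adjusted p 0.318) overlapped day 0 and was not called. The call of miR-451 was kept in every fit without 1 library (adjusted p 0.00238 to 0.0253). Day 0 replicate 3 was the lowest day 0 library for all 5 miRNAs, and without it the calls of miR-144-3p (0.92, adjusted p 0.189), miR-486-5p (1.07, 0.0958) and miR-486-3p (0.59, 0.193) were lost. Leaving out day 0 replicate 1 (adjusted p 0.0502), day 2 replicate 1 (0.138) or day 2 replicate 2 (0.109) also ended the call of miR-144-3p. Leaving out day 2 replicate 1 (0.0745) or day 2 replicate 2 (0.0891) ended that of miR-486-3p.

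From day 3 on the means of all 5 miRNAs lay below that of day 0. On day 3 the 2 strands of miR-144 were called lower than day 0, miR-144-5p by -1.55 (adjusted p 0.0221) and miR-144-3p by -1.33 (0.0290), where 19.0% of all tested rows were called lower. miR-486-5p (-0.87, adjusted p 0.152), miR-486-3p (-0.77, 0.0692) and miR-451 (-0.69, 0.222) did not pass. miR-486-3p was called with edgeR (-1.12, adjusted p 0.0367), DESeq2 (-1.17, 0.0214) and upper-quartile scaling (0.0477), and miR-486-5p in a fit of the days compared (0.0368). The calls of both strands were lost without day 0 replicate 1 (adjusted p 0.0772 for miR-144-3p and 0.0569 for miR-144-5p), without day 0 replicate 2 (0.0941 and 0.0878) and without day 3 replicate 2 (0.0932 and 0.0645), and that of miR-144-3p also without day 3 replicate 3 (0.0750). Without the low day 0 replicate 3, by contrast, miR-451 (-1.16, adjusted p 0.0463), miR-486-5p (-1.42, 0.0232) and miR-486-3p (-1.16, 0.00944) were called lower on day 3 as well, and miR-486-3p was also called without day 3 replicate 2 (0.0469).

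On day 7 none of the 5 was called against day 0 by the limma fit over all days, edgeR or DESeq2, and 0 of 5 had an unadjusted p under 0.05 in limma, while 22.7% of all rows were called lower. The differences ran from -1.04 for miR-144-5p to -0.34 for miR-451. Without day 0 replicate 3, miR-144-3p (-1.31, adjusted p 0.0484), miR-486-5p (-1.24, 0.0439) and miR-486-3p (-0.96, 0.0256) were called lower on day 7, and miR-144-5p was without day 7 replicate 2 (-1.47, 0.0457). With the depth covariate miR-144-3p (-1.19, 0.0104), miR-144-5p (-1.27, 0.0222) and miR-486-5p (-0.94, 0.0373) were called lower.

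On day 14 the strands of miR-144 were again called lower than day 0, where 17.9% of all rows were. miR-144-5p differed by -1.62 (adjusted p 0.0199) and miR-144-3p by -1.55 (0.0152), although in both the high replicate 1 of day 14 overlapped day 0. Both calls were lost without day 0 replicate 1 (adjusted p 0.0603 for miR-144-5p and 0.0527 for miR-144-3p), day 0 replicate 2 (0.0777 and 0.0548), day 14 replicate 2 (0.0734 and 0.0814) or day 14 replicate 3 (0.132 and 0.0645). miR-486-5p (-1.07, adjusted p 0.0790), miR-451 (-0.90, 0.109) and miR-486-3p (-0.74, 0.0842) did not pass. DESeq2 called miR-486-3p (-1.12, adjusted p 0.0361), and the depth covariate miR-486-5p (-0.96, 0.0388). Without day 14 replicate 1, miR-451 (-1.41, adjusted p 0.0145) and miR-486-5p (-1.71, 0.00408) were called. Without day 0 replicate 3, miR-451 (-1.34, 0.0262), miR-486-5p (-1.59, 0.0148) and miR-486-3p (-1.11, 0.0149) were called.

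On day 28 none of the 5 was called against day 0 by the limma fit over all days, edgeR or DESeq2, and 1 of 5, miR-144-3p (-1.21, adjusted p 0.123), had an unadjusted p under 0.05 in limma. miR-144-3p was called in a limma fit of the days compared (-1.22, adjusted p 0.0282) and with the depth covariate (-1.46, 0.00950). The share of all rows called lower on that day was 1.86%. These comparisons all use the same 3 day 0 libraries, so they are not independent of each other.

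**Figure D3:**
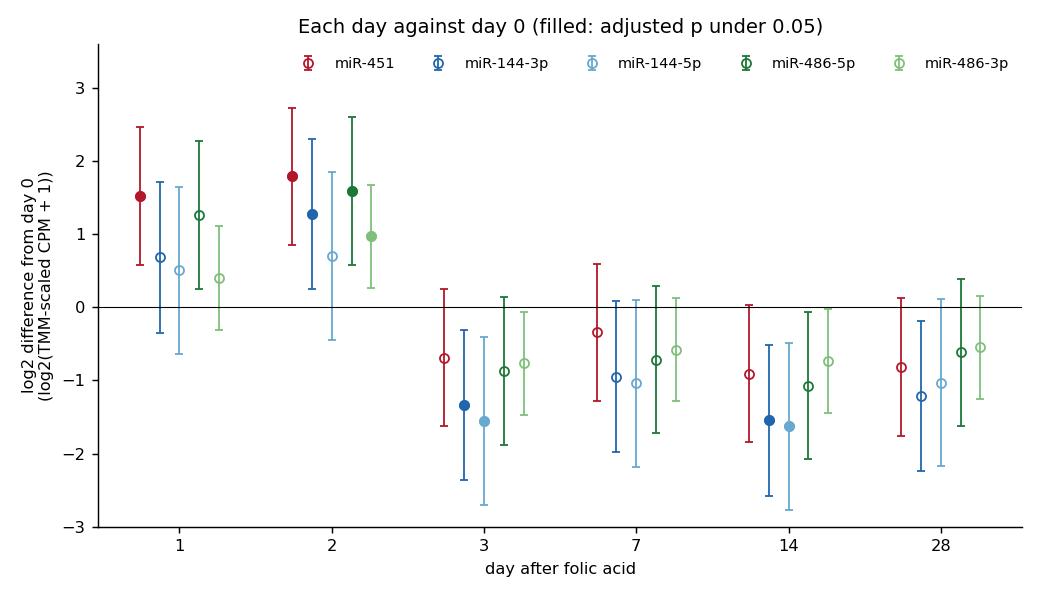
Log2 difference of each day from day 0 (log2(TMM-scaled CPM + 1)) for the 5 miRNAs; bars are 95% confidence intervals from the limma fit and filled points have an adjusted p under 0.05. Points lie above 0 on days 1 and 2 and below 0 from day 3 on; miR-451 has the highest point on day 2, at 1.79.

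Late days (7, 14 and 28) were set against early days (1, 2 and 3) as well, with 9 libraries on each side. miR-451 averaged 250 ± 111 CPM on the late days and 908 ± 634 CPM on the early days (log2 difference -1.56, limma adjusted p 7.77e-05). miR-486-5p differed by -1.46 (0.000349), miR-144-3p by -1.44 (0.000463), miR-144-5p by -1.12 (0.00841) and miR-486-3p by -0.82 (0.00232). All 5 were called lower, where 17.6% of all rows were, and all 5 kept the call in each fit without 1 library. The late libraries overlapped the early ones for every miRNA, and the early group includes the low day 3.

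The other steps in time gave no call. Between days 2 and 1 the 5 differences ran from 0.20 to 0.59, between days 7 and 3 from 0.15 to 0.52, between days 14 and 7 from -0.60 to -0.16 and between days 28 and 14 from 0.09, for miR-451, which was below 0 with library totals, upper-quartile scaling, edgeR and DESeq2, to 0.59. In each of these steps 0 of 5 was called by limma, edgeR or DESeq2 and 0 of 5 had an unadjusted p under 0.05 in limma. Of all tested rows, 2.32% were called higher on day 2 than on day 1, 1.62% higher on day 7 than on day 3, 3.25% lower on day 14 than on day 7 and 4.64% higher on day 28 than on day 14. Across all 7 days at once, the limma F test called all 5 (adjusted p 4.38e-05 for miR-451 and 0.00198 for miR-144-5p at the ends), as it did 63.1% of all rows.

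The 5 miRNAs also varied widely between the libraries of a day. The within-day SD on the log2 scale was 0.80 for miR-144-5p, 0.72 for miR-144-3p, 0.71 for miR-486-5p, 0.66 for miR-451 and 0.45 for miR-486-3p, against a median of 0.23 over the 431 rows. Ranked from the widest, these were places 2, 3, 5, 8 and 31. The libraries of a day differed in the same direction for the different miRNAs. With the mean of each day removed, miR-451 correlated with miR-144-3p over the 21 libraries at a Pearson r of 0.95 and a Spearman rho of 0.92. The permutation p was 1e-05 for both, the smallest that 100000 resamples can give (adjusted 2.8e-05 and 3.5e-05). With miR-486-5p, r was 0.90 (permutation p 0.00013, adjusted 0.000303) and rho 0.87 (0.0001, adjusted 0.000233). With miR-144-5p, r was 0.87 (permutation p 0.00056, adjusted 0.00112) and rho 0.82 (0.00149, adjusted 0.00298). With the sparse miR-486-3p, r was 0.49 (permutation p 0.0269, adjusted 0.0342) and rho 0.51 (0.0323, adjusted 0.0453). Without the 2 libraries farthest from the median of miR-451 these r values were 0.95, 0.90, 0.83 and 0.53. The p-values were adjusted over 14 correlations, and the 3 deviations of a day sum to 0, so the 21 points are not fully independent.

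The level also moved with sequencing depth within a day. Between log2 total reads and each miRNA, with day means removed, r was 0.70 for miR-144-3p (permutation p 0.00561, adjusted 0.00982), with a rho of 0.69 (0.00703, adjusted 0.0123). It was 0.68 for miR-486-5p (permutation p 0.0124, adjusted 0.0193), with a rho of 0.65 (0.0158, adjusted 0.0245). It was 0.63 for miR-451 (permutation p 0.0164, adjusted 0.0229), with a rho of 0.53 that did not pass after adjustment (0.0481, adjusted 0.0612). Without the 2 libraries farthest from the median depth r was 0.69, 0.64 and 0.60. Among the 431 rows miR-144-3p ranked 1, miR-486-5p 3, miR-451 5, miR-144-5p 8 and miR-486-3p 64 by this r, 8 rows were above 0.6 and the median was 0.03. Over the 21 libraries with day means kept, r with depth was lower and did not pass for any of the 3. It was 0.37 for miR-144-3p (permutation p 0.0976, adjusted 0.114), 0.34 for miR-486-5p (0.131, adjusted 0.141) and 0.28 for miR-451 (0.217, adjusted 0.217). CPM already divide by depth, and the part of depth in the results above was not tested beyond the fit with depth as a covariate. In that fit miR-451 (1.37, adjusted p 0.00662) and miR-486-5p (1.09, 0.0278) were still called higher on day 2 than on day 0, while miR-144-3p (0.76, adjusted p 0.120) and miR-486-3p (0.82, 0.0677) lost that call.

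**Figure D4:**
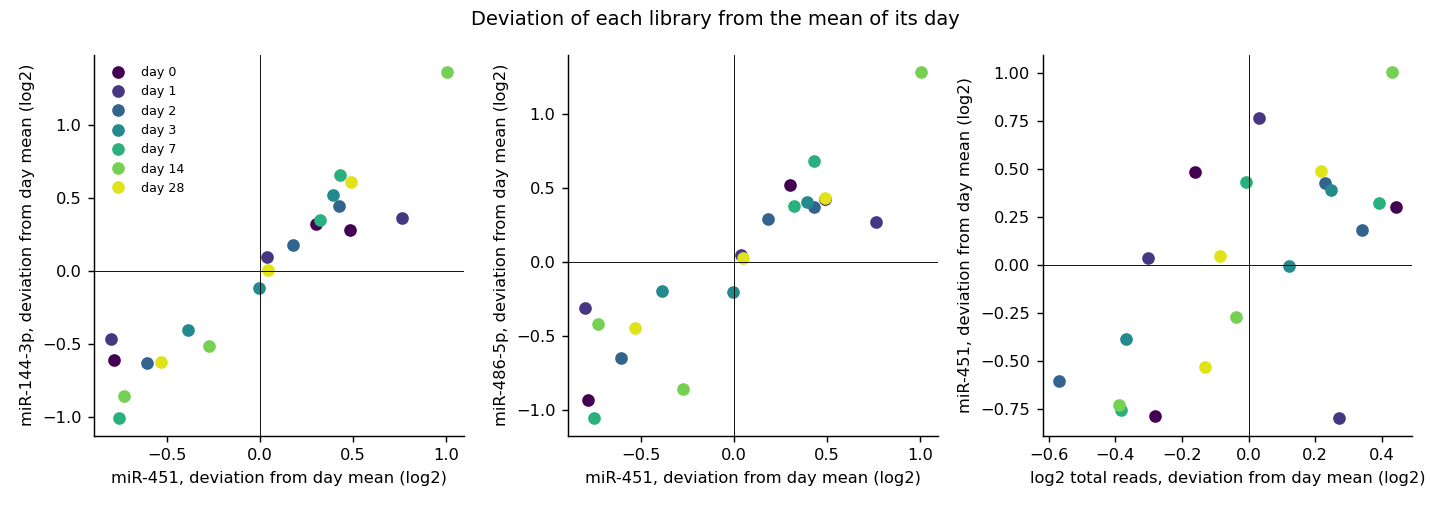
Deviation of each of the 21 libraries from the mean of its day, coloured by day: miR-144-3p against miR-451 (left), miR-486-5p against miR-451 (middle) and miR-451 against log2 total reads (right), all on log2 scales. The points of the left and middle panels lie along a rising line, with r of 0.95 and 0.90, and those of the right panel scatter more, with r of 0.63.

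Ratios within a library compare 2 miRNAs with little weight on the scaling between libraries, though for low rows the pseudocount of 1 CPM still enters. The log2 ratio of miR-144-3p to miR-451 differed across days in a permutation F test (p 0.00918 with 100000 resamples, adjusted over 4 ratios 0.0367). Its mean was -3.05 ± 0.19 in day 0 libraries and lowest, -3.89 ± 0.37, in those of day 1. Days 2, 3, 7 and 14 had means of -3.57 ± 0.02, -3.70 ± 0.12, -3.66 ± 0.24 and -3.69 ± 0.32 in that order, and day 28 stood at -3.45 ± 0.11 (SD, n = 3 each). The 18 later libraries ran from -4.29 to -3.32, and the lowest day 0 library stood at -3.25, so each later library had less miR-144-3p per miR-451 than each day 0 library, a split noticed after the values were seen. Its call is not stable: when 1 library was left out, the adjusted p ran from 0.00908 to 0.243. Late minus early, the ratio differed by 0.12 (exact permutation test, 9 against 9, two-sided, adjusted p 0.417).

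The other ratios did not pass. The log2 ratio of miR-486-5p to miR-451 averaged 2.31 ± 0.39 on late days and 2.21 ± 0.27 on early days (exact permutation test, adjusted p 0.529; across days 0.406). The ratio of the strands of miR-144, 3p to 5p, averaged 0.29 ± 0.35 on late days and 0.62 ± 0.31 on early days (exact permutation test, adjusted p 0.117; across days 0.326). The ratio of the strands of miR-486, 5p to 3p, averaged 8.37 ± 0.77 on late days and 9.01 ± 0.53 on early days (exact permutation test, adjusted p 0.117; across days 0.326). Late minus early, the change of miR-486-5p per miR-451, between loci on 2 chromosomes, was thus smaller than the SD between libraries. By day, the mean of this ratio ran from 2.05 ± 0.28 on day 7 to 2.62 ± 0.07 on day 28 (SD, n = 3 each). The number of libraries limits how small a difference could be seen.

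**Figure D5:**
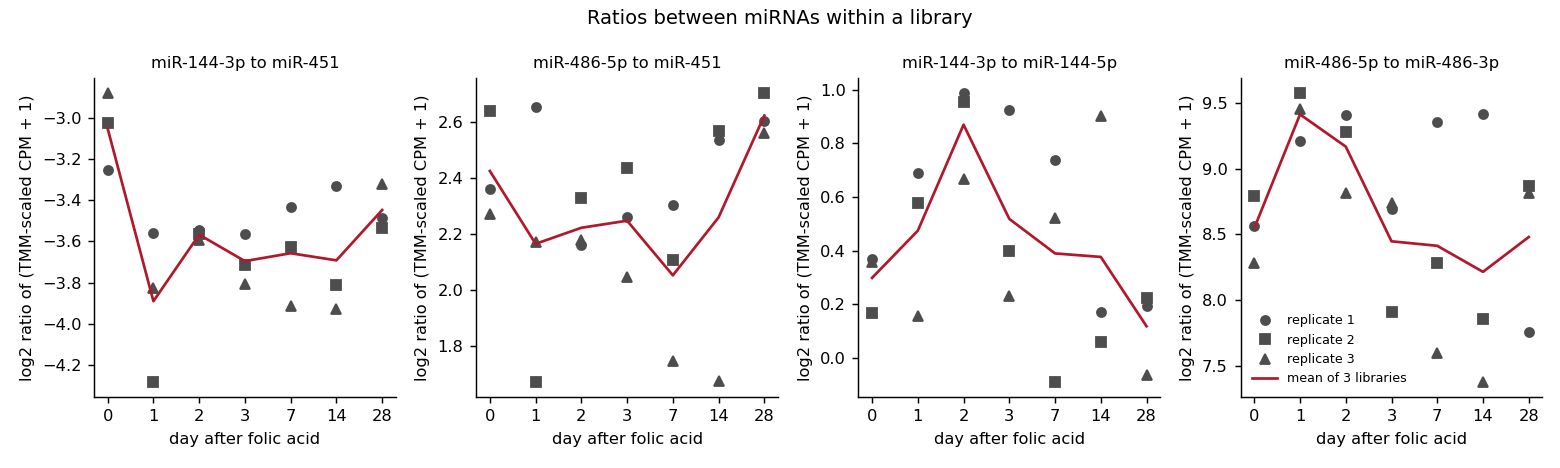
Log2 ratios of 2 miRNAs within each library, from TMM-scaled CPM + 1, against the day after folic acid (days evenly spaced); symbols are replicates 1 to 3 and the line joins the means. In the left panel the 18 later libraries, from -3.32 down, lie below the 3 of day 0, from -3.25 up.

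Outside the 6 rows, the tested miRNAs most like each of the main 3 over the 21 libraries were picked by Pearson r on log2(TMM-scaled CPM + 1), a description that includes the differences between days. miR-22-5p led for miR-451 (r 0.75), miR-144-3p (0.71) and miR-486-5p (0.69). miR-5097 came next for each (0.72, 0.70 and 0.68). The next for miR-451 were let-7d-3p (0.65), miR-429-3p (0.65) and miR-92a-3p (0.62), the last of these a member of the miR-17 to miR-92 cluster. For miR-144-3p they were miR-429-3p (0.61), miR-188-5p (0.61) and miR-29b-3p (0.58), and for miR-486-5p let-7d-3p (0.60), miR-429-3p (0.59) and let-7a-3p (0.59). The within-set correlations were higher: the 4 more abundant miRNAs correlated with each other at 0.91 to 0.97 over the same libraries.

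Other miRNAs found in red cells did not show a fall between days 3 and 2 of the size seen in the miRNAs described here. Of 7 that red cells hold but other cells express too, 1 was called higher on day 3, miR-15b-5p (log2 difference 0.46), and 0 lower. Of all rows, 3.71% were called higher and 1.62% lower. The rows called lower were the 6 described here and miR-5097, so 0 lower calls in a small list says little. The differences of the 7 ran from -0.23 to 0.46. Their median was 0.19, against 0.04 over all rows. The most abundant of these, miR-16-5p (0.35, adjusted p 0.226), miR-92a-3p (-0.23, 0.269) and miR-25-3p (0.00, 1.00), were not called. Of 5 that decline as erythroid cells mature, among them miR-221-3p (-0.06) and miR-222-3p (0.08), 0 were called in either direction, with a median of 0.08. The rest, miR-150-5p (0.55), miR-223-3p (0.26) and miR-155-5p (-0.06), are also among the leukocyte and platelet miRNAs below, so the lists overlap.

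Against day 0, the 7 shared red cell miRNAs gave 2 higher and 1 lower call on day 1 and 3 higher and 1 lower on day 2, where 14.2% and 24.4% of all rows were called higher and 11.1% and 19.0% lower. They gave 5 higher and 1 lower call on both day 3 and day 7, where 30.4% and 29.7% of all rows were called higher and 19.0% and 22.7% lower. On day 14 there were 2 higher and 1 lower, where 25.1% and 17.9% of all rows were. On day 28 there were 0 higher and 0 lower, where 11.1% and 1.86% of all rows were. miR-92a-3p was called higher from day 1 (log2 difference 1.06) to day 7 (0.60), with 1.16 and 0.93 in between. On each of days 1, 2, 3, 7 and 14, 1 of the 7 was called lower. The lowest difference among the 7 was -0.70 on day 1, -1.11 on day 2 and -0.92 on day 3. It was -1.33 on day 7 and -1.21 on day 14. Their summed level was 22084 to 25783 CPM on day 3 and 22428 to 23507 CPM on day 2, which overlap.

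Markers of other cells that these kidneys could hold were read in the same fit. Of 8 leukocyte and platelet miRNAs, 4 were called higher on day 3 than on day 2 and 0 lower, where 3.71% and 1.62% of all rows were. The 4 were miR-142-3p (0.86), miR-142-5p (0.53), miR-146a-5p (0.91) and miR-511-3p (1.21). The sum of the 8 was 2169 to 3165 CPM on day 3 and 1727 to 1807 CPM on day 2, so at that step it rose while the 5 miRNAs fell. Its mean had also risen before, from 1350 CPM on day 0 to 1598 on day 1 and 1776 on day 2. Over those days the means of the 5 miRNAs rose as well. Of 7 striated muscle miRNAs, which bear on miR-486 because muscle also makes it, 1 passed the filter, miR-133a-3p (0.08, adjusted p 0.978 between days 3 and 2). The heart and skeletal muscle markers below the filter were low in every library: miR-133b-3p had 1 to 12 reads, miR-1a-3p 0 to 10, miR-206-3p 0 to 1, miR-208a-3p 0 to 3, miR-208b-3p 0 to 4 and miR-499-5p 0 to 4. Against day 0, miR-133a-3p was called lower on day 7 alone (-1.11), where 22.7% of all rows were. The summed muscle level was 14.8 to 33.7 CPM on day 3 and 16.7 to 21.9 CPM on day 2. The day 2 mean of miR-486-5p was 6232 CPM, and the part of muscle in it was not tested.

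The liver miRNA miR-122-5p had 0 to 8 reads per library. The endothelial pair miR-126-3p (0.11) and miR-126-5p (-0.02) was not called between days 3 and 2. Both were called lower than day 0 on days 2, 3, 7 and 14, where 19.0%, 19.0%, 22.7% and 17.9% of all rows were. The kidney tubule list had 3 of its 4 miRNAs matched, miR-192-5p, miR-30a-5p and miR-204-5p, and 0 were called between days 3 and 2. Their sum was 188556 to 218692 CPM on day 0 and 104887 CPM or more in every library. It rested mainly on miR-192-5p and miR-30a-5p, with mean log2 levels of 16.3 and 15.9, against 8.56 for miR-204-5p. On day 2 the sum of the 3 was 117349 to 129282 CPM. On that day 2 of the 3 were called lower than on day 0, where 19.0% of all rows were. On day 1 all 3 were called lower, where 11.1% of all rows were. On days 3, 7 and 14, 1 was called higher, where 30.4%, 29.7% and 25.1% of all rows were. The other 2 were called lower on those days, where 19.0%, 22.7% and 17.9% of all rows were. On day 28, 1 was called higher and 0 lower, where 11.1% and 1.86% of all rows were. The part of any of these cell types in the levels of miR-451, miR-144 and miR-486 was not tested.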

How the data were processed

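Small RNA libraries were made with the Illumina TruSeq Small RNA kit, per the labels' protocols. The submitters' processing notes name CASAVA 1.8 and the build mm9; the aligner, counter and miRNA annotation were not given in the sources used here. The deposited table holds CPM: each of the 21 columns sums to 1000000. Dividing by the value of 1 read gave whole reads for 100% of values (tolerance 0.05 reads), which gave each library's total. Of 1125 rows, 250 had no read. Counts under 3 reads (0.422 to 1.04 CPM) are at the floor. This limit covers counting error only.

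TMM factors and a filter on low counts (filterByExpr, minimum count 10) left 431 rows. limma 3.58.1 with trend was fitted on log2(CPM + 1) over all 21 libraries; adjusted p under 0.05 was called. edgeR 4.0.16 and DESeq2 1.42.0 on recovered reads were alternatives, in R 4.3.3. Permutation tests used scipy 1.17.1 (two-sided); within-day correlations were permuted within days. The table being CPM, limma replaced the count test. Sequences came from RefSeq GRCm38.p6. Named miRNAs were the members, the 5 most correlated with each of miR-451, miR-144-3p and miR-486-5p, and list examples. The members and lists were chosen with earlier results of these data known. The fit was tested on simulated data.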

Additional observations from a re-analysis of the deposited data

How the results depend on the processing

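The replicate numbers showed no pairing of libraries at a cut-off of r above 0.1. In 0 of 21 pairs of days did all 3 same-numbered libraries pass it (r from -0.36 to 0.27), which cannot exclude a weaker pairing. With the replicate block 21 rows were called between days 3 and 2 and the 5 miRNAs kept their calls; miR-486-5p became called on day 1 (adjusted p 0.0281) and day 14 (0.0380). Among the 5, late against early and across all days kept every call. miR-144-5p lost its call between days 3 and 2 with no filter (0.0728) and with robust variance (0.0574). Against day 0, calls were lost with no filter for miR-144-3p on days 2 (0.107) and 3 (0.0656), miR-486-3p on day 2 (0.0765) and miR-144-5p on days 3 (0.0517) and 14 (0.0506). Robust variance ended those of miR-144-3p on days 2 (0.0881) and 3 (0.0701) and miR-144-5p on days 3 (0.0595) and 14 (0.0548). Library totals ended that of miR-144-3p on day 3 (0.0501), edgeR that of miR-144-5p on day 14 (0.0782), and DESeq2 those of miR-144-3p on days 2 (0.0560) and 14 (0.0526) and miR-144-5p on day 14 (0.0866). The depth covariate, added after the data were seen, ended those of miR-144-3p (0.120) and miR-486-3p (0.0677) on day 2 and added miR-144-3p (0.0417) and miR-486-5p (0.00302) on day 1, 3 on day 7, miR-486-5p on day 14 (0.0388) and miR-144-3p on day 28 (0.00950).

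Counts of all rows called moved most between neighbouring days. Day 3 against day 2 gave 23 rows, against 13 with upper-quartile scaling, 9 with no filter, 10 with a mean of at least 10 CPM, 15 with miR-3107-5p left out, 13 with the depth covariate and 6 to 17 without 1 library. Day 2 against day 1 gave 12, against 6 with no filter, 23 with DESeq2, 20 in a fit of the days compared, 2 with the depth covariate and 2 to 12 without 1 library. Day 7 against day 3 gave 8, against 3, 5 and 21 with no filter, a mean of at least 10 CPM and DESeq2, and 4 to 21 without 1 library. Day 14 against day 7 gave 19, against 12 with no filter, 0 in a limma fit of the days compared (44 at an unadjusted p under 0.05; edgeR and DESeq2 on all days called 20 and 25) and 5 to 46 without 1 library. Day 28 against day 14 gave 53, against 19 with no filter, 24 in a fit of the days compared and 11 to 70 without 1 library; day 28 against day 0 gave 56, and 37 to 57. The log2 ratio of miR-144-3p to miR-451 across days had an adjusted p of 0.0367, but 0.0666 with a pseudocount of 0.25 and 0.00908 to 0.243 without 1 library. With a pseudocount of 5 the late minus early ratios of miR-144-3p to miR-451 (0.27), miR-144-3p to miR-144-5p (-0.34) and miR-486-5p to miR-486-3p (-0.99) passed, as did the last across days (adjusted p 0.0393).

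Directions turned only where nothing was called. For miR-451 between days 28 and 14 (0.09) it was -0.039 with library totals, -0.0012 with upper-quartile scaling, -0.052 with edgeR, -0.051 with DESeq2, and -0.22 with the depth covariate. With that covariate, days 2 against 1 gave -0.48 for miR-451, -0.32 for miR-144-3p, -0.69 for miR-144-5p and -0.55 for miR-486-5p and for miR-3107-5p, days 7 against 3 gave -0.16 for each of the last pair, and days 28 against 14 gave -0.036 for miR-144-3p. Without 1 library, miR-451 ran from -0.12 to 0.64 (days 2 against 1), -0.79 to 0.014 (day 7 against 0) and -0.28 to 0.60 (days 28 against 14). miR-144-5p ran from -0.14 to 0.41 (days 2 against 1) and miR-144-3p from -0.10 to 1.03 (days 28 against 14). miR-486-3p ran from -0.064 to 0.37 (days 7 against 3), -0.29 to 0.087 (days 14 against 7) and -0.18 to 0.61 (days 28 against 14). miR-486-5p and miR-3107-5p ran from -0.19 to 0.71 (days 7 against 3) and -0.99 to 0.079 (days 14 against 7). Library totals gave 70.7% higher among the calls on day 1, not 56.0%, and moved the median of all rows by 0.18 on day 2 and 0.17 on day 3 against day 0, with 75.3% and 74.4% of calls higher, not 56.1% and 61.5%. Late against early they moved it by -0.11 (29.3% higher, not 52.8%). Upper-quartile scaling moved it by -0.18 on day 7 (45.1% higher, not 56.6%), by -0.12 on day 28 (58.0%, not 85.7%) and by 0.14 between days 14 and 7. The causes were not tested. Depth limits miR-486-3p most, at 4 to 80 reads per library.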

Other observations

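miR-101a-3p, which shares bases 2 to 7 with miR-144-3p, is far more abundant in the kidney and differed far less between days 3 and 2. It had 7943 to 8472 CPM on day 3 and 8692 to 9060.5 CPM on day 2, a log2 difference of -0.12 (limma adjusted p 0.717). Its libraries of those days did not overlap, which in this direction held for 7.19% of all tested rows.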
